A study of Mus musculus with 6 samples.

Results

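The genes described here are 35 genes of stromal cells, the connective tissue cells that build and tension the extracellular matrix, read in bone marrow macrophage cultures. They encode collagens and the proteins that process them, small proteoglycans, matricellular proteins, parts of the contractile apparatus, surface receptors of mesenchymal cells and osteoblast markers. A gene was measured if a probe set of the array was annotated with its symbol alone, and the probe set with the highest mean over the 6 arrays stood for the gene. This gave 33 of the 35 genes, out of 18193 genes on the array with such a probe set. No such probe set was used here for Fbn1 and Runx2.

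Total RNA was hybridised to Affymetrix Mouse Genome 430 2.0 arrays. BM_mutant (n = 3 arrays) was bone marrow macrophages from c57BL/6 TNFR1-/-R2-/- mice, which lack both TNF receptors, carrying a retroviral chimeric receptor with the outer part of mouse TNFR1 and the membrane and inner parts of mouse RANK, in which the IVVY motif bore inactivating mutations. BM_wt (n = 3 arrays) was the same kind of cells with the same chimeric receptor and an intact motif. Transduced cells of both groups were kept in 2 ug/ml puromycin over 3 days, then given 44 ng/ml M-CSF together with 10 ng/ml TNF and harvested 24 hours later, so no group was without retrovirus or without ligand. RNA from 6 dishes was pooled for each array, and the 3 arrays of a group came from 3 independent assays. The comparison of the groups addresses the part of the IVVY motif in gene expression. Whether each assay had mice of its own is not stated, so the p-values below measure the spread between these arrays. By the sex-linked genes given near the end, replicate 3 did not share its mix of donor mice with replicates 1 and 2.

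Fibroblasts and related mesenchymal cells secrete fibrillar collagen as procollagen chains that wind into triple helices, are trimmed outside the cell and are then cross-linked by lysyl oxidases. Small proteoglycans and matricellular proteins bind to these fibres, and smooth muscle actin with its partners lets activated stromal cells pull on them. In bone marrow such cells line vessels and bone surfaces and support blood cell formation, whereas macrophages are known more for taking up and degrading collagen than for making its fibrillar chains.

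The replicate 3 arrays stood apart for these genes in both groups. Same-numbered BM_mutant and BM_wt arrays were taken as pairs. The cultures carried the defining markers of macrophages on every array. The summed intensity of 14 macrophage markers (among them Csf1r, Cd68, Adgre1 and C1qa) was 353903 and 341225 on the BM_mutant and BM_wt replicate 3 arrays, against 314650 to 334134 on the other 4 arrays. Lyz1 and Lyz2, the brightest of the 14, weigh most in this sum, and single markers could differ more. Spi1 read 2179 and 2143 in replicate 3 for BM_mutant and BM_wt, against 2992 to 3510 elsewhere. Fcgr1 read 6595 and 9855 there, against 1062 to 3998 elsewhere. In bulk RNA, more cells of a type and more RNA per cell cannot be told apart, and this holds for each difference below.

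The replicate 3 comparison sets 1 assay against the other two, so it has no test. A gene was counted as higher in replicate 3 if both of its replicate 3 arrays lay at least 2-fold above each of the other 4 arrays on the log2(intensity + 16) scale, on which fold changes of dim genes are understated. Of the 33 measured genes 17 met this rule, against 0.951% of all 18193 genes, and 0 lay at least 2-fold below, against 0.984% of all genes. For 23 of the 33 both replicate 3 arrays lay above the other 4 by any amount, against 9.88% of all genes. The stromal list was proposed with the difference of replicate 3 known, so this count describes the list and lends it no independent support. The median log2 difference between replicate 3 and the other arrays was 1.37 over the 33 genes and -0.01 over all genes. The gene just inside the rule was Pdgfrb, with a gap of 1.22 on the log2 scale between its lower replicate 3 array and its highest other array, and the gene just outside was Col6a1, with a gap of 0.90.

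**Figure D1:**
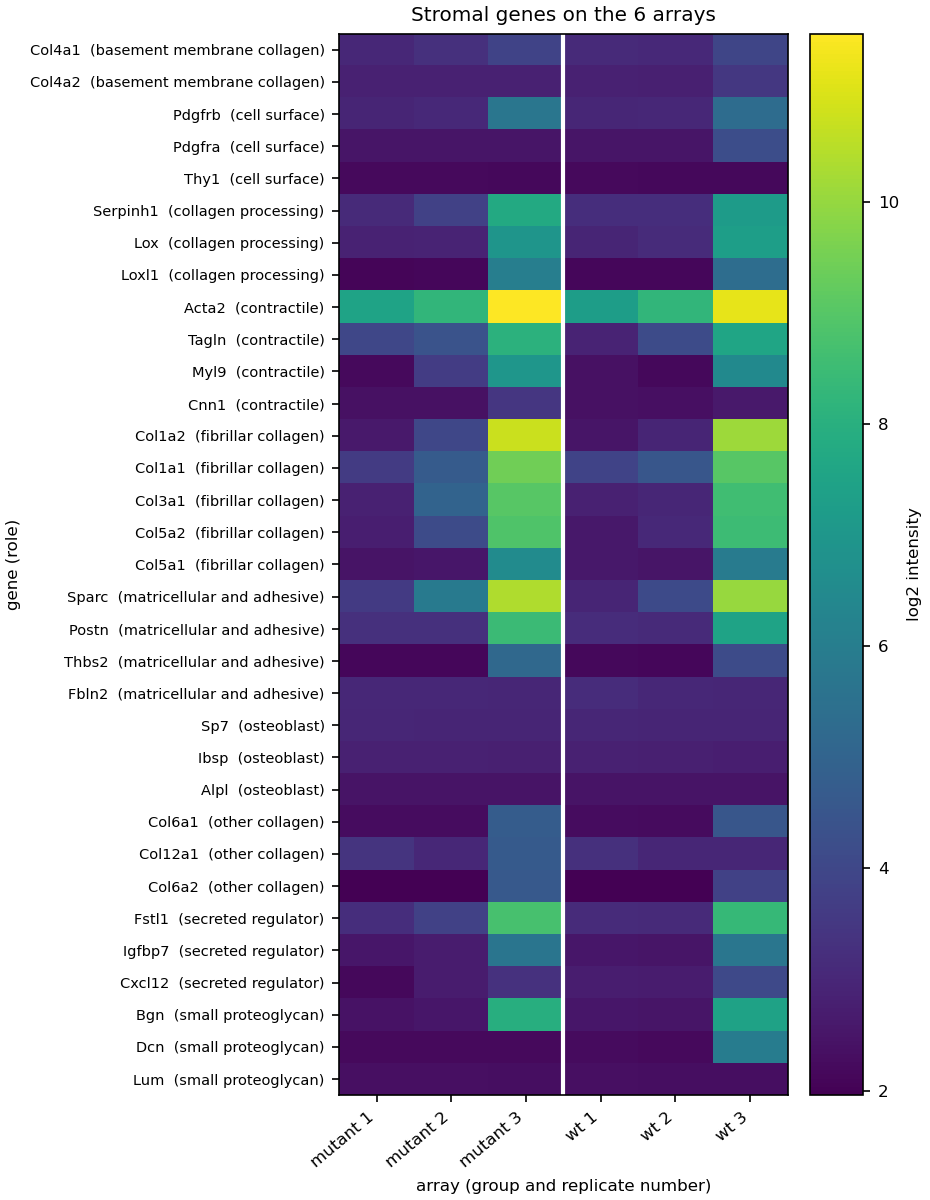
Log2 intensity of the 33 measured stromal genes (rows, with their role) on the 3 BM_mutant and 3 BM_wt arrays (columns). The 2 replicate 3 columns are bright for 17 genes, and the 3 osteoblast genes measured stay dark on all 6 arrays.

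All 5 fibrillar collagen genes met the rule. Col1a2, a chain of type I collagen, read 1719 and 1109 on the BM_mutant and BM_wt arrays of replicate 3, against 16.1 and 7.73 on those of replicate 2 and 6.07 and 5.69 on those of replicate 1. The other 4 arrays were at or near the floor of the processed values, so the size of the fold depends on the added constant of 16. Col1a1, the other chain of type I collagen, read 701 and 528 on the BM_mutant and BM_wt arrays of replicate 3, against 26.1 and 22.7 in replicate 2 and 12.2 and 14.7 in replicate 1. Both chains were thus high on the same 2 arrays, with no overlap with the other 4.

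Col3a1, the chain of type III collagen, read 524 and 380 on the BM_mutant and BM_wt arrays of replicate 3, against 31.9 and 8.002 in replicate 2 and 7.18 and 7.16 in replicate 1. Here BM_mutant array 2 stood above the other arrays of replicates 1 and 2. Col5a2, a chain of type V collagen, which takes part in starting fibrils, read 478 and 360 in replicate 3 for BM_mutant and BM_wt, against 17.8 and 8.39 in replicate 2 and 6.80 and 5.90 in replicate 1. Col5a1, the partner chain, stayed under an intensity of 100 and read 96.1 and 60.5 in replicate 3 for BM_mutant and BM_wt, against 5.50 to 5.92 on the other 4 arrays.

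The remaining collagens were dim. Col6a1 and Col6a2, chains of the beaded-filament collagen VI, read 26.6 and 24.7 on BM_mutant array 3 and 23.0 and 13.9 on BM_wt array 3, against at most 4.88 and 3.96 on the other arrays. Col4a1, a basement membrane chain, read 14.7 and 15.6 on the BM_mutant and BM_wt arrays of replicate 3, against 8.15 to 9.70 elsewhere. Its partner Col4a2 read at most 11.4 on any array. Col12a1, a collagen on the surface of fibrils, was at 25.5 on BM_mutant array 3 but 7.83 on BM_wt array 3, so only the first of these lay above the other arrays, which reached 10.5.

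All 3 genes that process collagen met the rule as well. Serpinh1, a chaperone that binds procollagen in the endoplasmic reticulum, read 218 and 147 on the BM_mutant and BM_wt arrays of replicate 3, against 13.9 and 9.25 in replicate 2 and 8.60 and 9.36 in replicate 1. Lox, a lysyl oxidase that cross-links collagen, read 122 and 160 in replicate 3 for BM_mutant and BM_wt, against 7.25 to 8.73 on the other 4 arrays. It was the one gene past the rule and over 100 whose BM_wt array 3 was the brighter, and its next probe set showed the same order, at 113 and 135. Loxl1, a related oxidase that acts on elastin, read 66.7 and 41.7 in replicate 3 for BM_mutant and BM_wt, against at most 4.35 elsewhere.

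Sparc, a secreted protein that binds collagen, read 1325 and 1061 on the BM_mutant and BM_wt arrays of replicate 3, against 57.4 and 17.3 in replicate 2 and 12.0 and 7.81 in replicate 1. Its BM_mutant value exceeded its BM_wt value in each pair, but both replicate 1 values lay under 16, where order carries little information. Postn, a matricellular protein of connective tissue under load, read 354 and 183 in replicate 3 for BM_mutant and BM_wt, against 8.63 to 9.85 on the other 4 arrays. Thbs2, a matricellular thrombospondin, read 36.6 and 17.7 in replicate 3 for BM_mutant and BM_wt and at most 4.43 elsewhere, which did not meet the rule. The Fbln2 probe sets disagreed, as the brighter read 7.86 and 7.997 in replicate 3 for BM_mutant and BM_wt against at least 8.04 elsewhere, while the dimmer read 15.3 and 10.9 against at most 4.26.

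Fstl1, a secreted glycoprotein of mesenchymal cells, read 423 and 329 on the BM_mutant and BM_wt arrays of replicate 3, against 13.8 and 8.48 in replicate 2 and 9.36 and 8.80 in replicate 1. Igfbp7, which binds insulin-like growth factors, read 50.9 and 52.4 in replicate 3 for BM_mutant and BM_wt and at most 6.44 on the other arrays, so the replicate 3 arrays were nearly alike. Cxcl12, the chemokine with which marrow stroma holds blood stem cells, was near the floor, at 9.94 and 17.0 in replicate 3 for BM_mutant and BM_wt against 4.45 to 6.59 elsewhere.

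Among the small proteoglycans, Bgn read 249 and 176 on the BM_mutant and BM_wt arrays of replicate 3, against 5.42 to 5.80 on the other 4. All 3 of its probe sets met the rule. Dcn, the decorin gene, read 62.9 on BM_wt array 3 but 4.61 on BM_mutant array 3, against 4.59 to 4.67 elsewhere, so a single array carried its signal. Lum, the lumican gene, read 4.97 to 5.11 on all 6 arrays.

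The contractile genes split. Acta2, smooth muscle actin, was the one measured stromal gene above an intensity of 100 on every array, and read 2928 and 2273 on the BM_mutant and BM_wt arrays of replicate 3, against 308 on each array of replicate 2 and 183 and 154 in replicate 1. These values come from its brightest probe set, and its other probe sets read at most 6.68 and 4.96 on any array. Tagln, an actin-binding protein of smooth muscle and activated fibroblasts, read 275 and 189 in replicate 3 for BM_mutant and BM_wt, against 21.4 and 17.8 in replicate 2 and 15.7 and 7.59 in replicate 1. Myl9, a regulatory light chain of myosin, read 126 and 90.9 in replicate 3, against 12.5 and 4.53 in replicate 2 and 4.59 and 5.20 in replicate 1, BM_mutant first in each pair. Cnn1, a calponin of differentiated smooth muscle, read 11.0 and 6.09 in replicate 3 for BM_mutant and BM_wt and at most 5.27 elsewhere.

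Of the surface molecules, Pdgfrb, a receptor of platelet-derived growth factor, read 52.2 and 40.6 on the BM_mutant and BM_wt arrays of replicate 3, against 7.72 to 8.32 elsewhere. Pdgfra, the receptor's relative, read 18.6 on BM_wt array 3 and 5.60 to 5.70 on the other 5 arrays. Thy1, a surface glycoprotein of many fibroblasts, read 4.51 to 4.59 on all 6 arrays. The osteoblast genes were flat as well. Sp7, a transcription factor of bone-forming cells, read 7.76 to 7.85, Ibsp, a bone matrix sialoprotein, 6.76 to 7.18, and Alpl, the alkaline phosphatase of mineralising cells, 5.46 to 5.57. In all, 9 of the 33 genes read 16 or less on all 6 arrays, and 5 exceeded 16 on 1 replicate 3 array alone.

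These 5 genes did not share the array. Dcn, Pdgfra and Cxcl12 exceeded 16 on BM_wt array 3, while Col6a2 and Col12a1 did so on BM_mutant array 3. Of the 23 genes with more than 1 probe set, all probe sets met the rule for 3, some for 11 and none for 9. A gene whose brightest probe set missed the rule had no other probe set that met it.

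Promoters are shown for 4 genes that were high on the same 2 arrays: a matricellular gene, chains of collagen I and collagen III, and a contractile gene. The sequences are RefSeq's for GRCm38.p6, and each holds the 250 bases before the annotated start, 5′ to 3′ on the gene's strand, in lower case. Capitals mark matches, on either strand, to 3 motifs. They are the CArG box bound by serum response factor at muscle genes, in the strict form CCWWWWWWGG (W is A or T), CCAAT and TATAAA. Sparc is at chr11:55420081-55420330 on the minus strand, Col1a2 at chr6:4505368-4505617, Col3a1 at chr1:45311288-45311537 and Myl9 at chr2:156775214-156775463, the last 3 on the plus strand.
Sparc: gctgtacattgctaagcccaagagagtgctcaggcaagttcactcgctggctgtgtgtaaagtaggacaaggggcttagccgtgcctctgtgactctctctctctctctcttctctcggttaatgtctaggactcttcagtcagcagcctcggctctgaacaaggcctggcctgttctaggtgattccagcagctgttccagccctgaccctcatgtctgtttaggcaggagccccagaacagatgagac
Col1a2: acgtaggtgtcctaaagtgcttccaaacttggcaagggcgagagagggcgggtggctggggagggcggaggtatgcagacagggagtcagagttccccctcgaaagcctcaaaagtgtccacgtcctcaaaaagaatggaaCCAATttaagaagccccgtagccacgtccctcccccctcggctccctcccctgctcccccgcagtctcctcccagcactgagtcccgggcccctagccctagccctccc
Col3a1: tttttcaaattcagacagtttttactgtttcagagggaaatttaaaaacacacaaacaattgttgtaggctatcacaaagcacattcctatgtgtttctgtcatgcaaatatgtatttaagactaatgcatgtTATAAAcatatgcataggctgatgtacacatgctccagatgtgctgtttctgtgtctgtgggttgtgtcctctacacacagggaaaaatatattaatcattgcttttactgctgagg
Myl9: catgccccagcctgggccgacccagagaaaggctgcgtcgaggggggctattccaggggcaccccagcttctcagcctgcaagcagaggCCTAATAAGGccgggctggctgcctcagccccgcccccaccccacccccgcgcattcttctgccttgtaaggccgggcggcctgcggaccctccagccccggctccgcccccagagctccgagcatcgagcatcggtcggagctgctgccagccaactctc

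The CArG box in the Myl9 window begins 161 bases before the start. Of the 24 stromal genes with a window in the RefSeq table, Myl9 alone held this strict form. It was in 1.47% of all 32851 windows of that length. The Acta2 window, not shown above, holds ccctatatgg and ccttgtttgg, which each depart from the strict form by a single base. Such near matches were not counted. CCAAT, here 109 bases before the start of Col1a2, was in windows of 6 of the 24 genes and in 33.8% of all windows. TATAAA, here 117 bases before the start of Col3a1, was in windows of 5 of the 24 genes and in 12.4% of all windows. The 3 motifs do not overlap in the windows shown, and a match is a description of the letters alone.

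The 13 stromal genes that reached an intensity of 100 on at least 1 array can be read beside each other on every array. Apart from Acta2, they reached 100 on replicate 3 arrays alone, so that all 13 met the replicate 3 rule follows largely from this threshold. The rule was met by 1.75% of the 8209 genes that reached 100. Within replicates 1 and 2, BM_mutant array 2 had 7 of the 33 stromal genes above an intensity of 16 and BM_wt array 2 had 4, while each array of replicate 1 had 1, which was Acta2.

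**Figure D2:**
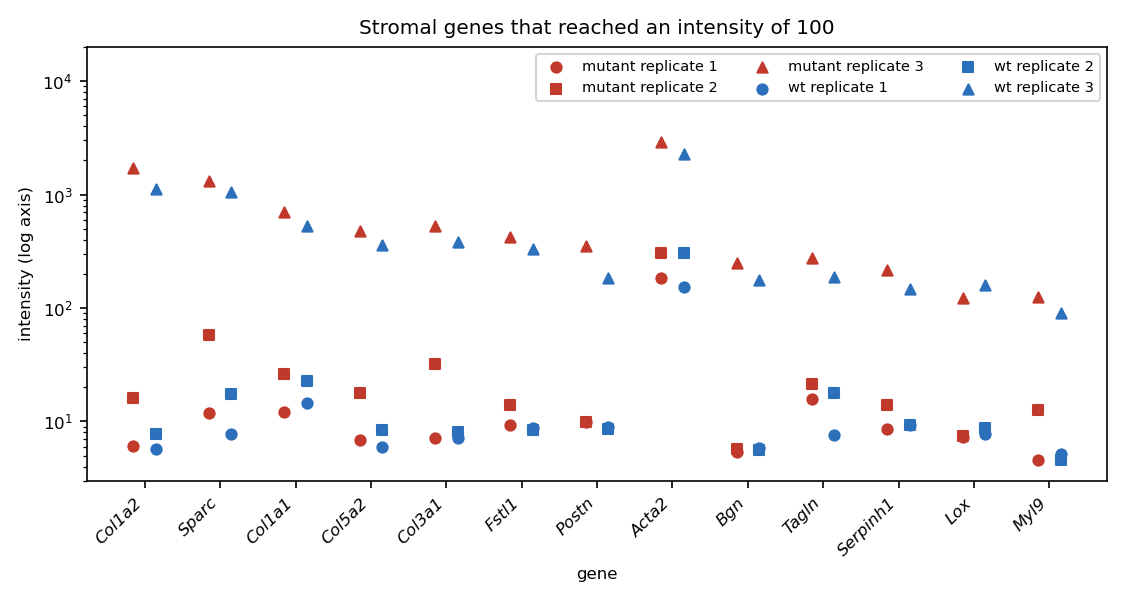
Intensity (log axis) of the 13 stromal genes that reached 100, for BM_mutant (left of each gene) and BM_wt (right) with 1 symbol per replicate number. The replicate 3 triangles lie above every circle and square of the same gene, and the BM_mutant square of replicate 2 lies above the BM_wt square for 11 of the 13 genes.

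Between the groups, no stromal gene passed. By limma over 22497 probe sets, 0 probe sets passed after Benjamini-Hochberg adjustment (0.0%, smallest adjusted p = 0.99998), and 198 had an unadjusted p under 0.05 (0.88%). Of the 33 stromal genes, 13 passed the filter on dim probe sets and were tested, 0 passed after adjustment and 0 had an unadjusted p under 0.05. The filter asks for 3 arrays above the array median, so a gene bright in replicate 3 alone passed through a further array and the 13 tested genes are a selection. They were 11 of those that reached 100, without Lox and Bgn, together with Col4a1 and Col12a1. With the replicate number as a block, limma called 0 of the 22497 probe sets (0.0%), of which 563 were higher and 626 lower at an unadjusted p under 0.05, and 0 of the 33 stromal genes passed when the filter was dropped.

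For the tested genes bright in replicate 3, standard errors were several times smaller once the assays were blocked. Sparc averaged 465 ± 745 in BM_mutant and 362 ± 605 in BM_wt (SD, n = 3 each), a log2 difference of 0.56 with a standard error of 2.10 without the block and 0.22 with it (limma, adjusted p = 0.99998 and 0.859). Without BM_mutant array 3 the Sparc difference was -1.07. Acta2 averaged 1140 ± 1550 in BM_mutant and 912 ± 1181 in BM_wt (SD, n = 3 each), a log2 difference of 0.20 with a standard error of 1.42 without and 0.10 with the block (limma, adjusted p = 0.99998 and 0.859). For Tagln the difference was 0.36, with standard errors of 1.22 and 0.11. Its unadjusted p of 0.0277 by limma with the block was the one under 0.05, in either direction, among the 13 tested stromal genes. At such a p, 563 of all 22497 probe sets were higher (2.5%) and 626 were lower. The adjusted p of Tagln in that limma fit was 0.859.

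Within same-numbered pairs the BM_mutant array was more often the brighter for the 13 genes that reached 100. Myl9 reached 100 on BM_mutant array 3 alone, at 126 against 90.9 on BM_wt array 3, so the threshold itself can favour that array. In replicate 3, 12 of the 13 were higher on the BM_mutant array, against 49.1% of the 8209 genes that reached 100, and the exception was Lox. The BM_mutant over BM_wt intensity ratio there had a median of 1.38 and ran between 0.758 for Lox and 1.93 for Postn. The median log2 difference of the 13 in replicate 3 was 0.40, against -0.0033 for the genes that reached 100. Over all 33 measured stromal genes this median was 0.32. Directions were mixed among the dimmer ones, with Dcn and Cxcl12 lower and Col5a1 and Loxl1 higher on BM_mutant array 3. The 13 genes share the 2 arrays, so their common direction is 1 comparison of 2 RNA pools and not 13.

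In replicate 2, 11 of the 13 were higher on the BM_mutant array, against 54.0% of the genes that reached 100, with a median log2 difference of 0.24 and the highest values for Sparc (1.14) and Col3a1 (0.997). Acta2 was level there, at -0.0003. In replicate 1, 8 of the 13 were higher, against 51.0% of the genes that reached 100, with a median of 0.03, and most of these values lay near the floor on both arrays. In all 3 pairs 7 of the 13 were higher in BM_mutant and 1, Lox, was lower, against 14.4% and 12.6% of the genes that reached 100. For several of the 13, Lox and Postn among them, the orders in replicates 1 and 2 are between values under 16, at the floor, and carry little information. The values of 0 of the 13 genes were without overlap between the groups, against 3.03% of the genes that reached 100.

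**Figure D3:**
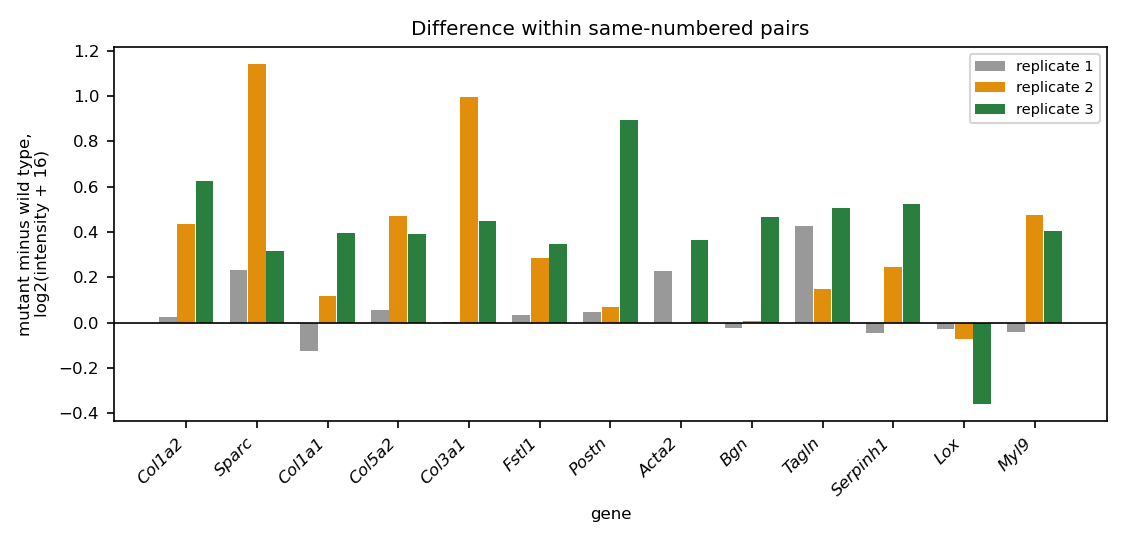
BM_mutant minus BM_wt on the log2(intensity + 16) scale within replicates 1, 2 and 3 for the 13 stromal genes that reached 100. In replicate 3, 12 bars lie above 0 and Lox lies below, and Sparc and Col3a1 have their highest bars in replicate 2.

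Some further genes of the matrix also stood higher in replicate 3. Of 40 other matrix proteins measured, 4 met the rule, against 0.951% of all genes, and 1 lay at least 2-fold below, against 0.984%. Mgp, an inhibitor of calcification, read 143 and 148 on the BM_mutant and BM_wt arrays of replicate 3, against 4.37 to 5.38 elsewhere, and Tnc, a matricellular protein of healing tissue, read 170 and 110 against at most 8.14. Fn1, fibronectin, which macrophages also make, read 1281 and 795 in replicate 3, against 430 and 202 in replicate 2 and 517 and 212 in replicate 1, BM_mutant first in each pair, and did not meet the rule. By limma, 0 of the 16 tested passed after adjustment. Vcan, a large proteoglycan, had the smallest p, with a log2 difference of -1.18 ± 0.22 SE (limma, unadjusted p = 0.00248, adjusted p = 0.99998), at 5.34, 5.35 and 8.81 on the 3 BM_mutant arrays against 22.9, 34.6 and 51.4 on the BM_wt arrays. Of its 8 probe sets 1 other showed this and the rest were at the floor. Nid2, of basement membranes, differed by 0.29 ± 0.15 SE and had the next smallest p in this fit, which had no block. In limma with the replicate block, the unadjusted p was 0.0572 for Nid2, 0.00113 for Vcan, 0.0020 for Fn1 and 0.0033 for Col18a1. Fn1 and Col18a1 differed by 0.98 and 0.63 on the log2 scale, and the adjusted p of all 4 genes in that blocked limma fit was 0.859.

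Of 17 further genes of collagen processing 1 met the rule. Pcolce, which speeds the trimming of procollagen, read 205 and 156 in replicate 3 for BM_mutant and BM_wt, against 7.98 to 11.5 elsewhere. Loxl3, a lysyl oxidase relative, and P4ha1, a prolyl hydroxylase subunit, had the next highest differences, at 0.79 and 0.26 on the log2 scale. For P4ha1 the BM_mutant and BM_wt arrays of replicate 2, at 682 and 646, were level with those of replicate 3, at 678 and 614. Between the groups 0 of 14 tested passed in limma, and P4ha2 (0.28 ± 0.15 SE) and P3h1 (-0.12 ± 0.14) had the smallest p.

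Of 21 further contractile and cytoskeletal genes 4 met the rule. Cnn3, a calponin found outside muscle, read 391 and 310 in replicate 3 for BM_mutant and BM_wt, against 19.3 and 9.57 in replicate 2 and 8.59 and 9.64 in replicate 1. Cald1, which binds actin and myosin, and Tpm2, a tropomyosin, differed by 2.87 and 2.51 on the log2 scale between replicate 3 and the other arrays. Of 15 tested between the groups 0 passed in limma, and Cnn2 (0.38 ± 0.34 SE) and Tpm1 (-0.37 ± 0.36) had the smallest p.

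Of 16 genes of transforming growth factor beta and platelet-derived growth factor signalling 1 met the rule. Ccn2, a matricellular target of the first pathway, read 829 and 627 in replicate 3 for BM_mutant and BM_wt, against 106 and 50.4 in replicate 2 and 14.4 and 11.0 in replicate 1. Pdgfc, a ligand, and Ccn1, a relative of Ccn2, followed at 1.35 and 1.08 on the log2 scale. For Pdgfc this came from low replicate 1 arrays, at 391 and 549 for BM_mutant and BM_wt. Its replicate 2 arrays, at 2023 and 2393, lay near those of replicate 3, at 2641 and 2570. Between the groups 0 of 13 tested passed in limma. Igf1, a growth factor of macrophages and stroma, differed by 0.34 ± 0.11 SE and Tgfbr1 by 0.40 ± 0.36, both with an adjusted p = 0.99998.

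Markers of other cells were set beside the stromal genes. The summed intensity of the 33 stromal genes was 9911 and 7413 on the BM_mutant and BM_wt arrays of replicate 3, against 373 to 665 on the other 4. Of 15 further fibroblast markers 3 met the rule. Prrx1 read 46.0 and 29.0 in replicate 3 for BM_mutant and BM_wt, Cdh11 54.6 and 75.3, and Snai2 46.6 and 84.7, against at most 9.08 elsewhere, while Twist1, Twist2, Dpt and Gas1 were at most 6.07 on any array. The list summed to 223 and 261 in replicate 3, against 85.5 to 88.5 on the other arrays. Fap, a surface protease of activated fibroblasts, read 11.9 and 10.3 in replicate 3. Col2a1, the collagen of cartilage, read 24.0 and 19.7 in replicate 3 for BM_mutant and BM_wt, and none of 9 chondrocyte markers met the rule. Of 11 endothelial markers 0 met the rule, and Pecam1 and Cdh5 read at most 4.15 and 5.33. Kdr, a receptor of vascular endothelial growth factor and the one of them to reach 100, read 52.5, 116 and 62.3 on BM_mutant arrays 1, 2 and 3 and 57.2, 39.5 and 171 on the BM_wt arrays of the same numbers. Of 10 smooth muscle and pericyte markers outside the list 1 met the rule. It was Actg2, an actin of visceral smooth muscle that also belongs to the contractile genes above, at 117 and 47.7 on the BM_mutant and BM_wt arrays of replicate 3 against 9.61 to 10.3 elsewhere. Cspg4 read 127 and 73.6 on BM_mutant arrays 1 and 2 and at most 10.0 on the other 4 arrays, while Rgs5 and Mcam read at most 6.06 and 3.95 on any. No osteoblast marker outside the list read above 9.22.

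**Figure D4:**
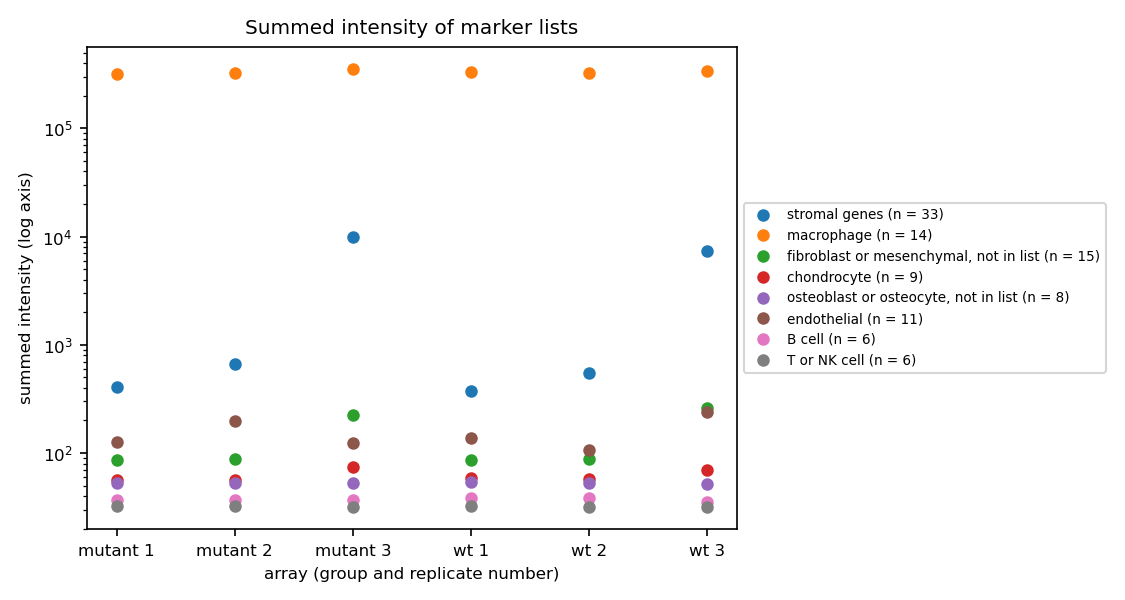
Summed intensity (log axis) of 8 marker lists on the 3 BM_mutant and 3 BM_wt arrays, to be compared between arrays within a list. The 33 stromal genes sum to 9911 and 7413 on the replicate 3 arrays against 373 to 665 on the other 4, and the sum of the macrophage markers stays between 314650 and 353903.

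Other features also set the replicate 3 arrays apart, and their part in the stromal difference was not tested. Xist, expressed in female cells, read 10.5 and 8.82 on the BM_mutant and BM_wt arrays of replicate 3, against at least 3308 elsewhere. Eif2s3y, on the Y chromosome, read 1368 and 1436 in replicate 3 for BM_mutant and BM_wt, against 12.9 to 349 elsewhere. The replicate 3 arrays thus read as male cells, while the other arrays carried the Xist signal of female cells. Eif2s3y read 349 and 227 on the BM_mutant and BM_wt arrays of replicate 2, but 308 and 12.9 on those of replicate 1. Kdm5d, another sex-linked gene, read 64.1 and 5.83 on the BM_mutant and BM_wt arrays of replicate 1. The replicate 1 pair was thus unlike for these genes. The part of this in the pair differences and the blocked fit was not tested. Among genes that reached 100, those outside the list whose values over the 6 arrays lay nearest those of Sparc, by Euclidean distance of log2 values centred per gene, were Ccl8 (1.27), Ccn2 (1.59), Cnn3 (1.77), Ccl5 (2.04) and Slfn1 (2.07). Ccl8 and Ccl5 are chemokines and Slfn1 is a schlafen family gene. Ccl8 read 646 and 972 on the BM_mutant and BM_wt arrays of replicate 3, against 6.12 to 37.7 elsewhere, and was higher on the BM_wt array, unlike Sparc. Among the stromal genes Col1a2 (1.20), Col3a1 (1.27), Col5a2 (1.37) and Col1a1 (1.37) lay nearest Sparc by this distance.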

How the data were processed

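The deposited values are intensities, 1 per probe set and array, on a linear scale. GCOS and GCRMA are listed, per the submitters' processing notes, with no version, role or order. The authors' processing left 75th percentiles of 160 to 164 on the 6 arrays, so the intensities were used as deposited. GCRMA pulls unexpressed probe sets to a floor, so order among values under about 16 carries little information. No count or depth exists for arrays, and their number limits the precision.

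Of 45101 probe sets 64 controls were left out. The platform annotation gave 1 symbol for 34945 of the other 45037, several for 932 and none for 9160. Values were transformed to log2(intensity + 16). BM_mutant minus BM_wt was tested with limma 3.58.1 in R 4.3.3, two-sided, without a block, on 22497 probe sets above the median of their array on at least 3 arrays. Benjamini-Hochberg adjusted p-values under 0.05 passed, and standard errors (SE) are limma's moderated ones. The replicate 3 comparison and medians used all measured genes, since that filter removes genes bright on 2 arrays alone. This departs from the planned filter.

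Groups and replicate numbers came from the sample titles. They were taken as pairs because the labels' protocols give 3 independent assays and because same-numbered arrays moved together. The deviations of same-numbered BM_mutant and BM_wt arrays from their group means correlated at 0.797, 0.671 and 0.845 over the tested probe sets. For unlike numbers the correlation was at most -0.0138. Deviations from a group mean cancel out within the group, so positive same-numbered values go with negative unlike ones, which are no separate support. The replicate 1 pair was unlike in sex-linked genes, as given above. The members and lists were chosen with earlier results of these data known. Values by array are given for genes reaching an intensity of 100, and others are given by range or as examples of their role. In related lists the 3 genes with the highest replicate 3 difference and up to 2 with the smallest p in limma without a block are named. Alternatives were other pseudocounts, filters, quantile normalization, the mean of a gene's probe sets, replicate blocks and leaving out arrays. The limma step was tested on simulated data.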

Additional observations from a re-analysis of the deposited data

How the results depend on the processing

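The count of 0 stromal genes between BM_mutant and BM_wt held under each alternative run, the replicate block and leaving out each array included, and over all probe sets the random replicate block called 1 while the fixed replicate block called 0. The pairing changed no other call. The replicate 3 count of 17 was 17 to 20 without any 1 array, 20 with a pseudocount of 1, 13 with 64, 12 with the mean of a gene's probe sets, 19 and 12 when 1.5-fold and 4-fold were required, 11 with the filter at the array median (13 genes left) and 1 with the filter at the 70th percentile (1 gene left). With the filters fewer genes were counted. The median log2 difference of replicate 3 over the stromal genes, 1.37, was 2.38 with a pseudocount of 1, 0.61 with 64, 1.32 after quantile normalization, 0.71 with the mean of a gene's probe sets, 3.42 and 3.41 with the filter at the median and the 70th percentile, 1.51 in BM_mutant alone, 1.51 in BM_wt alone, and 1.37 to 1.51 without any 1 array. The median pair difference over all 33 genes was -0.0021 in replicate 1 and 0.0075 in replicate 2. It was 0.23 in replicate 1 for the 1 gene left by the 70th percentile filter, and 0.24 in replicate 2 for the 13 genes left by the median filter as well as for the 13 that reached 100. The median BM_mutant minus BM_wt difference of 0.13 over the 33 genes ran between -0.50 and 0.50 without 1 array or 1 assay.

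Without 1 array or 1 assay, and with no filter so that each gene has a value every time, the BM_mutant minus BM_wt difference ran between -0.98 and 1.29 for Acta2, -1.07 and 2.32 for Sparc, -1.33 and 1.46 for Col1a1, -1.65 and 2.24 for Col1a2, -0.86 and 1.84 for Col3a1, -1.08 and 1.65 for Col5a2, -0.94 and 1.34 for Postn, -1.11 and 1.49 for Fstl1, -0.67 and 1.31 for Tagln, -0.57 and 1.06 for Myl9, and -0.79 and 1.14 for Serpinh1. Leaving out a replicate 3 array leaves the groups with unlike numbers of arrays from that assay. The filter at the array median, the restriction to genes that reached 100 and the blocks and leave-outs without a filter were chosen after seeing the data. Signal limits the rest: 20 of the 33 genes stayed under an intensity of 100 on every array.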

Other observations

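Some matrix and cytoskeletal genes went the other way in replicate 3, and were chosen after their values were seen. Col18a1, a basement membrane collagen with a heparan sulfate chain, read 78.6 and 43.8 on the BM_mutant and BM_wt arrays of replicate 3, against 350 and 251 in replicate 2 and 191 and 104 in replicate 1. Lamc1, a laminin chain, read 35.1 and 32.9 in replicate 3 for BM_mutant and BM_wt, against 99.8 to 141 elsewhere. Flna, an actin cross-linker that macrophages express, read 1507 and 1950 in replicate 3 for BM_mutant and BM_wt, against 2955 to 4452 elsewhere.

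Vcam1, an adhesion molecule of stromal and endothelial cells, was also chosen after its values were seen. It read 158 and 628 on the BM_mutant and BM_wt arrays of replicate 3, against 8.24 and 27.6 in replicate 2 and 8.08 and 13.1 in replicate 1, so the BM_wt array was the brighter in each pair. Vcam1 was the 1 gene past the replicate 3 rule among 10 markers of marrow reticular stroma, against 0.951% of all genes. Of the others, Lepr and Ebf3 read at most 5.77 and 5.93 on any array. Kitl read 342 and 237 in replicate 3 for BM_mutant and BM_wt, against 231 to 485 elsewhere. Cspg4, a proteoglycan of pericytes chosen in the same way, read 127, 73.6 and 5.98 on BM_mutant arrays 1, 2 and 3, against 6.48, 10.0 and 5.98 on the BM_wt arrays of the same numbers.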
